A study of Mus musculus with 5 samples.

Results

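The 4 Id genes and 6 genes of bone morphogenetic protein (BMP) signalling were followed across 4 mouse medulloblastomas and 1 cerebellum. The members were the inhibitor genes Id1, Id2, Id3 and Id4, the ligand genes Bmp2, Bmp4 and Bmp7, the receptor genes Bmpr1a and Bmpr1b, and the inhibitory Smad gene Smad7. All probe sets whose only gene symbol in the platform annotation was one of these names were taken, which gave 24 probe sets for the 10 genes, out of 34945 probe sets for 18193 genes. The medulloblastoma group holds 4 tumours of the mouse cerebellum, and it is set against 1 sample labelled P5 cerebellum, taken to mean postnatal day 5. The series title speaks of Cxcr6 mutant mice and a Smoothened inhibitor, but genotype, strain, treatment and tumour age are not given for single arrays, so none of them was compared.

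BMPs are secreted ligands that join type I receptors, such as those encoded by Bmpr1a and Bmpr1b, with type II receptors at the cell surface. The type I receptors then phosphorylate Smad1, Smad5 and Smad9, which enter the nucleus with Smad4 and switch on target genes, among which Id genes are the classical readout. Id proteins have a helix-loop-helix domain but no DNA-binding basic region, so they bind E proteins and keep them from acting with tissue-specific transcription factors. In the developing cerebellum, BMPs from the roof plate help to specify granule neuron precursors, and later BMP ligands oppose the proliferation that Sonic hedgehog drives in these precursors. Smad7 is induced by the pathway and inhibits it.

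A signal here is the deposited intensity of a probe set, which is relative to its own array and is not comparable between probe sets. With 1 cerebellum and 4 tumours, every comparison rests on a single normal array, and the smallest p that an exact permutation test allows with these arrays is 0.2. Nothing in the labels says whether the tumours came from separate mice, so p-values measure the spread between these samples, which may be technical. The median signal of the arrays was 191 to 213 in the tumours and 232 in the cerebellum. RNA integrity can be read from the 3'/5' signal ratio, which was 1.21 to 1.45 for actin in the tumours, with the top value in medulloblastoma 1, and 1.33 in the cerebellum. For Gapdh the ratio was 0.73 to 0.95 in the tumours, again with the top value in medulloblastoma 1, and 0.82 in the cerebellum. The titles of medulloblastomas 1 and 2 begin with ken, and those of medulloblastomas 3 and 4 and of the cerebellum with hmk. Markers of granule neuron precursors, the cells from which Hedgehog-driven medulloblastomas arise, were followed too. Of 12 such markers, 7 were above the cerebellum in every tumour and 3 below it, against 25.1% and 30.8% of all genes. Atoh1 passed the test, as did 0.312% of all genes on the higher side. The mean differences on the log2 scale were 2.81 for Atoh1 and 2.20 for Ccnd1, which was not called. The 3 below were Pax6, Neurod1 and Zic1, differing by -1.02, -0.81 and -0.40, and none was called.

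All 8 Id probe sets, the one of Id1 included, read lower in every tumour than in the cerebellum, and the promoters of Id2, Id3 and Id4 are shown for this reason. They come from a RefSeq table on the build GRCm38.p6, in which 6 of the 10 members were matched by symbol, and run from 250 bases before the start of the gene to 50 after it, 5' to 3' on the strand of the gene. They lie at chr12:25096043-25096342 on the minus strand for Id2, chr4:136143572-136143871 on the plus strand for Id3 and chr13:48260866-48261165 on the plus strand for Id4. Capitals mark matches to GGCGCC, a GC-rich motif bound by BMP-activated Smads, and to CAGAC or its reverse complement GTCTG, the Smad box, searched on both strands with no overlap between matches.
Id2 promoter: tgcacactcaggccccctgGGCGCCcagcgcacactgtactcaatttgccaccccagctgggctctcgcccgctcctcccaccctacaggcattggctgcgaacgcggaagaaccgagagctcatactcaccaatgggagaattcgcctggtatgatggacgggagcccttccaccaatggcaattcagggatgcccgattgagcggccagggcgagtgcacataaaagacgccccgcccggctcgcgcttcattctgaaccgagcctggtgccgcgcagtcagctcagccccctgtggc
Id3 promoter: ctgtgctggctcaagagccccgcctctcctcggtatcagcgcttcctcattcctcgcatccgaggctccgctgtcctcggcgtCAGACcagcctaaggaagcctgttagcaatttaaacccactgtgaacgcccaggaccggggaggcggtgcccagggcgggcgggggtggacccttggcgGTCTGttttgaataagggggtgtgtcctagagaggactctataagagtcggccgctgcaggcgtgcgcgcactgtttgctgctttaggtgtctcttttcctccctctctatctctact
Id4 promoter: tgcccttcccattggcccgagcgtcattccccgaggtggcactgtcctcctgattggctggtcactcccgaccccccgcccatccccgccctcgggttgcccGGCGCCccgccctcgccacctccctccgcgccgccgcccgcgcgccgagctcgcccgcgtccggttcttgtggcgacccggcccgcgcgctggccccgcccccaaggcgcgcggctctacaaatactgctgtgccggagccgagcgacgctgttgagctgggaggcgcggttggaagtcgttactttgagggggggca
GGCGCC was found at -231 to -226 in Id2 and at -148 to -143 in Id4, counted from the start of the gene. Id3 held CAGAC at -167 to -163 and GTCTG at -68 to -64. Of all 32851 promoters in the table, 11.9% held GGCGCC and 49.6% held CAGAC or GTCTG, so neither match is rare, and a match is not evidence of binding.

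Id3 was the member that passed the test. Its single probe set read 483, 553, 488 and 459 in medulloblastomas 1 to 4, compared with 2889 in the cerebellum. The tumours lay close together, at 15.9% to 19.1% of the cerebellum signal, and did not overlap with it. On the scale of log2(signal + 32), used for every difference below, Id3 fell by 2.47 ± 0.26 (SE of the fit; limma with Benjamini-Hochberg adjustment over 14109 genes, adjusted p = 0.0197), a 5.55-fold difference. Id3 was thus 1 of 25 genes called lower, which are 0.177% of those tested. The SD among tumours was 0.11, and 5.98% of the genes tested had a smaller one. The size of the difference did not rest on any 1 tumour, ranging from -2.55 to -2.28 over all 20 alternatives. The call was lost without medulloblastoma 2 (limma, adjusted p = 0.0825) and without medulloblastoma 4 (limma, adjusted p = 0.0670). Neither of these fits called any gene lower. The adjusted p of Id3 was also 0.0971 when limma's prior variance was held constant across signal levels. In that setting no gene was called, and 908 genes were higher and 1099 lower at an unadjusted p under 0.05.

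**Figure D1:**
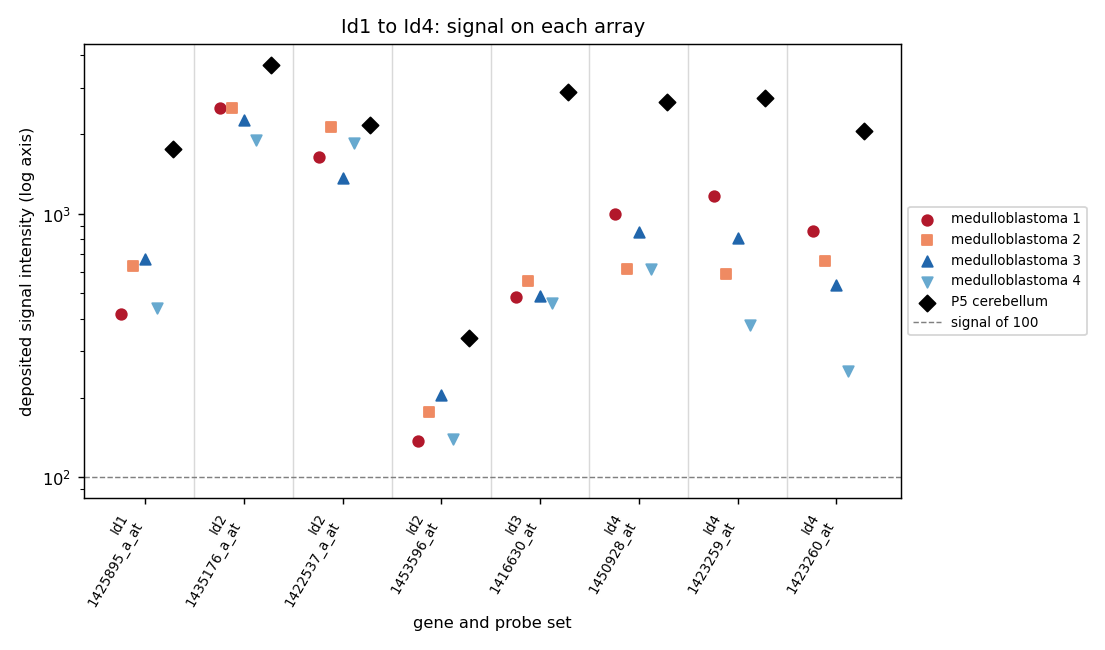
Deposited signal (log axis) of the 8 probe sets of Id1, Id2, Id3 and Id4 on each array, with coloured symbols for the 4 medulloblastomas and a black diamond for the P5 cerebellum. The cerebellum is above all tumours at each probe set, with the widest gap at Id3 (459 to 553 against 2889) and the narrowest at the Id2 probe set 1422537_a_at.

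Id1 was also lower in every tumour, without passing the threshold over all genes. It read 415, 629.9, 670.1 and 437 in the tumours, compared with 1756 in the cerebellum. The tumour signals were 23.6% to 38.2% of the cerebellum signal, lowest in medulloblastomas 1 and 4, 1 of each title prefix. The difference was -1.68 ± 0.34 (limma, adjusted p = 0.1004). The 95% interval of the difference ran from -2.47 to -0.89.

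Id4, an Id protein of neural precursors and astrocytes, was measured by 3 probe sets that all pointed the same way. The brightest, 1450928_at, read 999, 619, 848 and 619 in the tumours, compared with 2640.1 in the cerebellum. The second, 1423259_at, read 1168, 588, 810.3 and 378, against 2736 in the cerebellum. The third, 1423260_at, read 856, 663, 537 and 254, against 2057 in the cerebellum. Medulloblastoma 1 was the highest tumour on all 3, and no tumour overlapped with the cerebellum. The brightest gave a difference of -1.76 ± 0.33 (limma, adjusted p = 0.0753), and the other probe sets gave -1.96 and -1.89. Without medulloblastoma 1, the limma adjusted p was 0.00865 for Id4 and 0.0239 for Id1, at differences of -1.89 and -1.57, and 2.71% of all genes were then called lower. Medulloblastoma 1 had the top 3'/5' ratio for actin, and the part of that ratio in these calls was not tested.

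Id2, which is expressed widely in the developing nervous system, differed least among the Id genes. Its brightest probe set, 1435176_a_at, read 2504, 2509, 2254 and 1894 in the tumours, compared with 3666 in the cerebellum. These are 51.7% to 68.4% of the cerebellum signal, a difference of -0.68 ± 0.24 (limma, adjusted p = 0.264). A second probe set, 1422537_a_at, read 1631, 2121, 1363 and 1858, against 2162 in the cerebellum, so that medulloblastoma 2 was nearly level with it. The dimmest, 1453596_at, read 137, 178, 206 and 139.5, against 336 in the cerebellum. With the arrays scaled to equal medians, 7 of the 8 Id probe sets were below the cerebellum in every tumour, the exception being 1422537_a_at. That scaling moved the median difference of all genes to 0.12, whereas it was -0.07 as deposited.

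**Figure D2:**
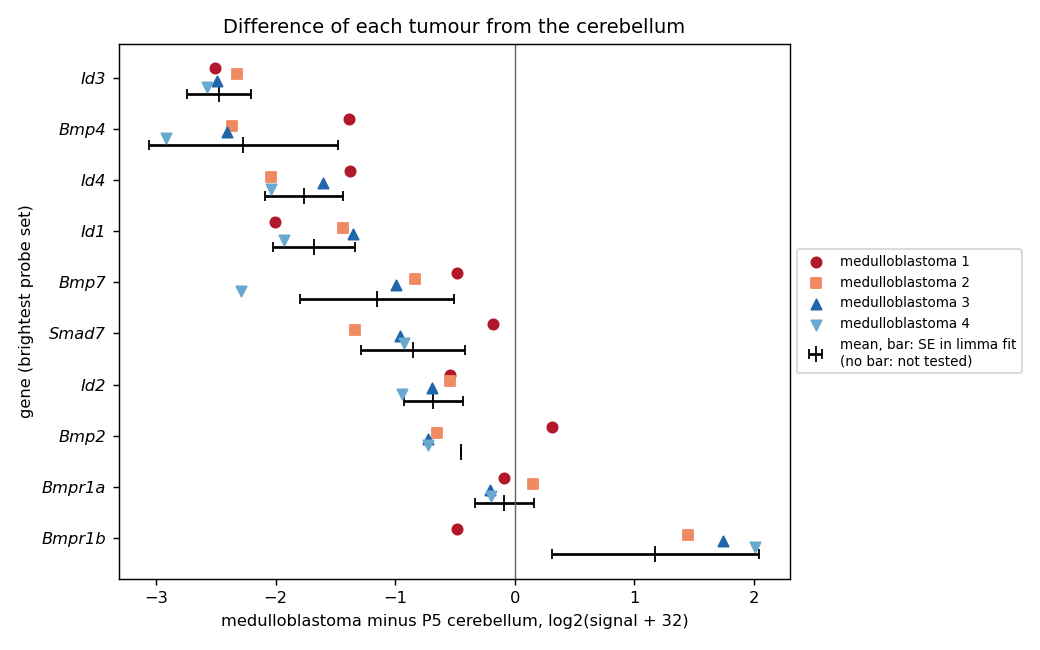
Difference of each medulloblastoma from the P5 cerebellum in log2(signal + 32) for the brightest probe set of each member, with the mean and its SE in the limma fit as a black bar; Bmp2 was not tested. The tumours are close together for Id3 and far apart for Bmpr1b, where medulloblastoma 1 is on the other side of 0.

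**Figure D3:**
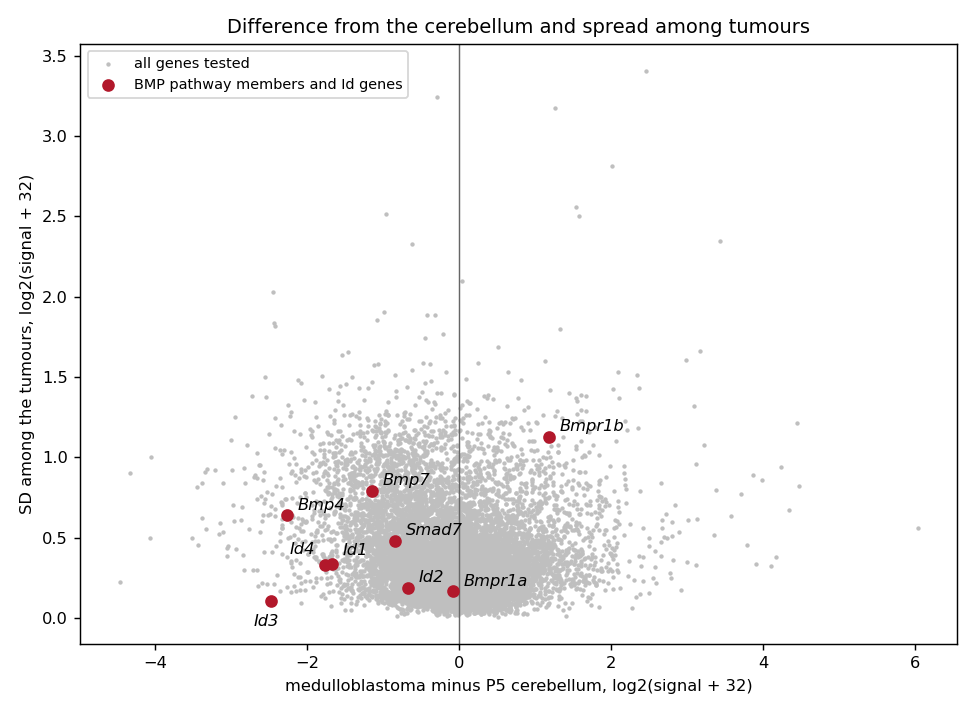
Mean difference from the P5 cerebellum (x axis) and SD among the 4 medulloblastomas (y axis), both in log2(signal + 32), for the 14109 genes tested (grey) and the 9 tested members (red). Id3 lies at the lower left (difference -2.47, SD 0.11) and Bmpr1b at the upper right of the members (difference 1.18, SD 1.13).

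Among the ligands, Bmp4 had the largest difference and Bmp2 was too dim to test. Bmp4, which encodes a ligand of the roof plate and of other dorsal tissues, read 121, 45.7, 43.4 and 20.8 in the tumours, compared with 367 in the cerebellum. All tumours were below the cerebellum, with medulloblastoma 1 nearest to it. The difference was -2.27 ± 0.79 (limma, adjusted p = 0.254). The mean signal of Bmp4 over the tumours was 57.7, under the minimum of 100 set for the mean of all arrays, so Bmp4 entered the test only through the cerebellum and had to differ. Bmp2 read 43.2, 6.57, 4.59 and 4.58 in the tumours, compared with 28.5 in the cerebellum, at signals that do not support a comparison.

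Bmp7, a ligand expressed in meninges, choroid plexus and hindbrain roof, had 3 probe sets with the same direction. The brightest, 1435479_at, read 372, 285, 251 and 83.1 in the tumours, compared with 532 in the cerebellum. Medulloblastoma 4 was the lowest, and no tumour reached the cerebellum. The difference was -1.15 ± 0.64 (limma, adjusted p = 0.425), with a 95% interval from -2.63 to 0.33. The probe set 1418910_at read 83.7, 77.7, 149 and 123, against 282 in the cerebellum, where medulloblastomas 3 and 4 were the higher tumours. The dimmest, 1432410_a_at, read 16.2, 71.3, 11.2 and 49.1, against 167 in the cerebellum. The order of the tumours therefore differed between the probe sets, while the cerebellum was the highest array on each.

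Neither receptor gene was called. Bmpr1a, the broadly expressed type I receptor, read 1531, 1815, 1411 and 1418 in the tumours at its brightest probe set, 1425492_at, against 1632 in the cerebellum. The tumours lay on both sides of the cerebellum, at a difference of -0.09 ± 0.25 (limma, adjusted p = 0.893). At this probe set the 95% interval, -0.66 to 0.49, does not include a 2-fold change in either direction. Intervals were not computed for the other probe sets of Bmpr1a. The sign of a difference as small as -0.09 depended on the settings, at 0.11 with equal medians and 0.05 with all probe sets averaged. Of the 5 other probe sets, 1425493_at was above the cerebellum in every tumour (769.5, 689.5, 812 and 656, against 592 in the cerebellum). The probe set 1425491_at read 407 and 512 in the ken tumours and 796 and 689 in the hmk tumours. The cerebellum, whose title also begins with hmk, read 450.2, between the ken tumours. The remaining probe sets, 1425494_s_at and 1451729_at, had tumours on both sides, and 1445413_at was dim, at 7.36 to 10.7 in the tumours and 20.0 in the cerebellum.

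Bmpr1b, the second type I receptor, gave opposite results at its brighter probe sets. The probe set 1422872_at read 55.5, 301, 375 and 458 in the tumours, compared with 90.1 in the cerebellum. Medulloblastomas 2, 3 and 4 were above the cerebellum and medulloblastoma 1 below it. The probe set 1437312_at read 274, 141, 187 and 208, against 391 in the cerebellum, so that all tumours were lower and medulloblastoma 1 the highest of them. The first gave a difference of 1.18 ± 0.87 (limma, adjusted p = 0.540), and the second gave -0.88. The SD among tumours at 1422872_at was 1.13, and 97.9% of the genes tested had a smaller one. Without medulloblastoma 1 the difference there was 1.73 ± 0.40 and was called (limma, adjusted p = 0.0420), as it was within the hmk arrays (1.87 ± 0.45, limma adjusted p = 0.0234), fits that called 3.18% and 5.93% of all genes higher. The part of the transcript that each probe set covers was not used here, so no direction is given for Bmpr1b as a gene. The third probe set, 1443720_s_at, was dim, at 10.5 to 78.2 in the tumours and 19.9 in the cerebellum.

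**Figure D4:**
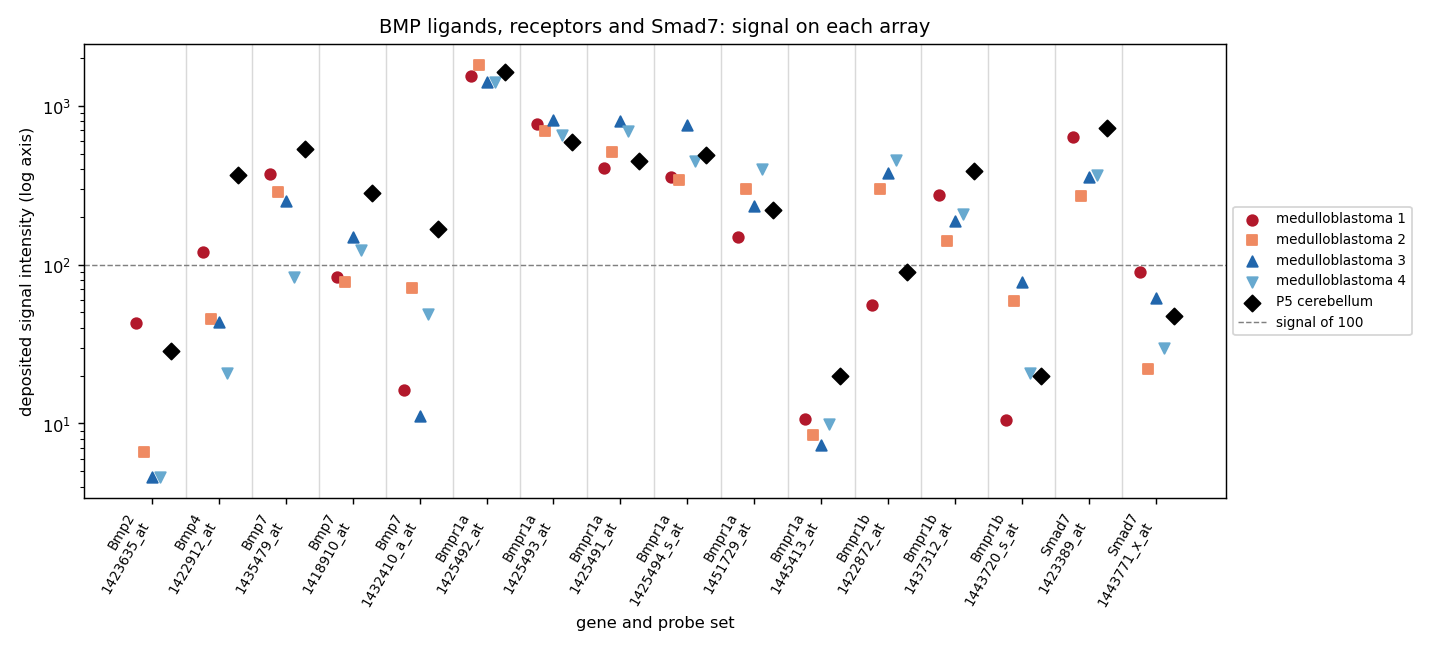
Deposited signal (log axis) of the 16 probe sets of Bmp2, Bmp4, Bmp7, Bmpr1a, Bmpr1b and Smad7 on each array, with coloured symbols for the 4 medulloblastomas, a black diamond for the P5 cerebellum and a dashed line at a signal of 100. The cerebellum is above the tumours at Bmp4 and Bmp7, and the Bmpr1b probe sets 1422872_at and 1437312_at place medulloblastomas 2, 3 and 4 on opposite sides of it.

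Smad7, the inhibitory Smad, read 636, 269, 358 and 368 in the tumours, compared with 726 in the cerebellum. All tumours were lower, and medulloblastoma 1 was nearly level, at 87.6% of the cerebellum signal. The difference was -0.85 ± 0.44 (limma, adjusted p = 0.392), with a 95% interval from -1.86 to 0.16. Its second probe set, 1443771_x_at, was dim, at 22.2 to 90.2 in the tumours and 47.8 in the cerebellum.

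Of the 9 tested members, 1 was called lower and 0 higher in the medulloblastomas by limma. The background over all genes was 0.177% called lower and 0.312% called higher. At an unadjusted p under 0.05, 5 members were lower and 0 higher, against 7.44% and 7.72% of all genes, and these 5 were the Id genes and Bmp4. At least 2-fold below the cerebellum in every tumour were Id1, Id3, Id4 and Bmp4, a rule that 2.63% of all genes met, and no tested member was 2-fold above in every tumour (2.01% of all genes). Bmp4 no longer met the rule with the larger constant tried, where its difference was -1.44, or with a minimum mean of 200. Below the cerebellum in every tumour, by any amount, were 7 of the 9, against 30.8% of all genes. Probe set by probe set, 19 of the 24 had a mean of at least 100, and 13 of these were below the cerebellum in every tumour, against 28.6% of all probe sets; equal medians made it 11. With probe sets tested separately, limma called 1 member probe set lower, that of Id3, against 0.0732% of all, and 0 higher, against 0.137%. Bmp4 had to differ to be tested at all, and the members were chosen with earlier results known, so these counts describe the members and do not test them.

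The Id genes were also compared by title prefix. Each pair of tumours was set against the hmk cerebellum. The mean differences of the ken tumours and the hmk tumours were -2.41 and -2.53 for Id3, -1.72 and -1.64 for Id1, -0.54 and -0.82 for Id2, and -1.71 and -1.82 for Id4. Within the hmk arrays alone, limma called Id1, Id2, Id3 and Id4 lower and Bmpr1b higher, but this fit takes its spread from 1 pair of tumours and called 5.96% of all genes lower. The ken tumours have no cerebellum of their own prefix. Set against the hmk cerebellum, they gave Id3 as the only member called lower, among 0.113% of all genes. That call was lost (limma, adjusted p = 0.0607) when the probe sets and the filter were taken from those 3 arrays, a fit that called no gene in either direction.

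None of the tested genes in the other pathway lists was called in either direction, against 0.489% of all genes. At that share, few or no calls would come up in lists this short. The lists were written from known roles, with earlier results of these data known, and their counts of genes below or above the cerebellum in every tumour are to be read against 30.8% and 25.1% of all genes. Of the 12 other BMP-type ligands, 5 could be tested, with a median difference of -1.32, against -0.07 over all genes. Gdf10, a BMP-like ligand of Bergmann glia, read 1538, 665, 377 and 505 in the tumours, compared with 4904 in the cerebellum (-2.82 ± 0.62; limma, adjusted p = 0.109). Bmp6 read 146, 142, 175 and 125, against 499.7 in the cerebellum (-1.58 ± 0.43; limma, adjusted p = 0.161). Gdf2, a ligand of endothelial receptors, differed by -1.32 ± 0.69, and Bmp8b by 0.52 ± 0.81. In this list 3 of the 5 were below the cerebellum in every tumour and 0 above it.

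The other receptors and co-receptors had a median difference of -0.11 over 9 genes, of which 4 were below the cerebellum in every tumour and 2 above it. The furthest were the endothelial receptor genes Acvrl1 (-0.89 ± 0.59) and Eng (-0.83 ± 0.40), the co-receptor gene Rgma (-0.69 ± 0.30) and the type II receptor gene Acvr2b (0.48 ± 0.35). Smad proteins and their regulators had a median of 0.06 over 10 genes, with 4 below and 5 above in every tumour. Zfp423, a zinc finger partner of Smads that is needed for cerebellar development, read 1439, 835, 962 and 1052 in the tumours, compared with 2405 in the cerebellum (-1.17 ± 0.32; limma, adjusted p = 0.163). The inhibitory Smad gene Smad6, which with a tumour mean of 98.6 was tested only through the cerebellum, differed by -0.89 ± 0.55, Tob1 by 0.71 ± 0.28 and the Smad repressor gene Ski by 0.38 ± 0.26. The effector genes Smad1, Smad4 and Smad5, named after their values were seen, differed by -0.19 ± 0.24, 0.24 ± 0.22 and -0.06 ± 0.24.

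Secreted antagonists and modulators had a median of -0.18 over the 10 that could be tested of 16, with 3 below and 1 above the cerebellum in every tumour. Chrd, which encodes the BMP antagonist chordin, read 745, 669.8, 151 and 299.7 in the tumours, compared with 1389 in the cerebellum (-1.74 ± 0.73; limma, adjusted p = 0.316). The hmk tumours were the lower pair. Chrdl2 differed by -1.28 ± 0.43, Chrdl1 by -0.54 ± 0.64 and Sostdc1, another secreted antagonist, by 1.14 ± 0.92. The last was bright in medulloblastomas 1 and 4 (214 and 244) and dim in medulloblastomas 2 and 3 (35.7 and 64.9) and in the cerebellum (33.9).

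Of the other BMP-induced transcription factors, 6 could be tested. Their median was -0.28, and 2 were below and 2 above the cerebellum in every tumour. Msx2, a homeobox target of the pathway, read 45.5, 8.55, 35.6 and 168 in the tumours, compared with 349 in the cerebellum (-2.24 ± 0.94; limma, adjusted p = 0.316), and was tested only through the cerebellum. Hey1, which also answers to Notch, differed by 0.68 ± 0.29, Dlx5 by 1.49 ± 0.87 and Msx1 by -0.58 ± 0.44. The E proteins, the binding partners of Id proteins, were split: Tcf12 read 2028, 2252, 2591 and 2415 in the tumours, compared with 3575 in the cerebellum (-0.62 ± 0.23). Tcf3 read 2573, 2903, 2781 and 2732, against 1889.8 in the cerebellum (0.53 ± 0.21), so that no tumour overlapped with the cerebellum on either gene, in opposite directions. Tcf4 differed by 0.23 ± 0.28, and none of the 3 passed the test over all genes.

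Id genes and BMP ligands are also expressed outside the granule neuron lineage, and markers of such cell types were followed in the same tumours. Sums of signals below weight bright probe sets most and serve only to compare arrays, and counts in every tumour are to be read against 30.8% of all genes below and 25.1% above. Calls are to be read against 0.177% of all genes called lower and 0.312% called higher. In bulk tissue, fewer cells of a type and less RNA per cell cannot be told apart. The summed signal of 14 astrocyte and Bergmann glia markers was 40459 to 49155 in the tumours and 85345 in the cerebellum. Without the brightest, Fabp7, it was 33088 to 46956 in the tumours and 57402 in the cerebellum. Of these markers, 8 were below the cerebellum in every tumour, and S100b, Aldoc, Slc1a2 and Sox9 were above it, by 1.62, 0.83, 0.71 and 0.58 on the log2 scale and without being called. Aldh1l1 (-2.64 ± 0.28) and Aqp4 (-2.09 ± 0.27) were called lower (limma, adjusted p = 0.0197 and 0.0262). The summed signal of 14 endothelial and pericyte markers was 4357 to 6869 in the tumours and 11839 in the cerebellum, with 11 below in every tumour and 1 above. None of these was called, and the furthest were Pecam1 (-2.18 ± 0.58), Kdr (-1.90 ± 0.45) and Cdh5 (-1.71 ± 0.44). Pecam1 and Tie1, with tumour means of 75.1 and 80.2, were tested only through the cerebellum and had to differ. The summed signal of 13 meningeal and fibroblast markers was 8959 to 12479 in the tumours and 21584 in the cerebellum, with 8 below in every tumour and 1 above. Col3a1 (-2.40 ± 0.30) was called lower, and Col1a1 differed by -2.15 ± 0.66. Slc6a13 read 85.2, 41.1, 13.7 and 39.6 in the tumours, compared with 699 in the cerebellum, and was likewise tested only through the cerebellum. The part of these cell types in the differences of Id1, Id3, Id4, Bmp4 and Bmp7 was not tested.

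The sum of 6 choroid plexus markers was 4953 to 34430 in the tumours and 14233 in the cerebellum, most of it from Ttr. Without Ttr it was 1145 to 2963 in the tumours and 2277 in the cerebellum. Their median difference was -0.57, with none called, and Otx2 was at 1608 and 1111 in the ken tumours, 95.3 and 126 in the hmk tumours and 843 in the cerebellum. Markers of microglia and macrophages moved the other way, with sums of 23125 to 29700 in the tumours and 7874 in the cerebellum. Of 12 such markers, 11 were above in every tumour, the exception being P2ry12 (0.03 ± 0.54). Called higher were 4 (Lyz2, Ctss, C1qa and Tyrobp), against 0.312% of all genes.

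The genes nearest to each Id gene were found by the mean absolute distance between their differences from the cerebellum, taken over the 4 tumours. Nearest to Id3 were Col23a1 (137, 152, 126 and 98.8 in the tumours, compared with 888 in the cerebellum), Spock3 and Ednrb, at distances of 0.09, 0.11 and 0.16 on the log2 scale. Ednrb read 1073, 1134, 924 and 1225 in the tumours, compared with 5689 in the cerebellum, a difference of -2.36 ± 0.25. Since these genes were picked for differences like those of Id3, their own differences are not separate support for it. Nearest to Id1 were Kcp, Olfr140 and St8sia4, at 0.12 to 0.16, and nearest to Id4 were Sema6a, Dscam and Plekhg5, at 0.11 to 0.14. Stc2, Pde2a and Adgrl2 were nearest to Id2, at 0.03 to 0.06. Spock3 and Olfr140, with tumour means of 98.2 and 63.3, were among the genes tested only through the cerebellum. With 4 tumours and 1 shared cerebellum, these likenesses are descriptions of these arrays.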

How the data were processed

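RNA from 4 medulloblastomas and 1 P5 cerebellum had been measured on Affymetrix arrays. The authors deposited a linear intensity for each probe set on each array. MAS5 is named in the submitters' processing notes for every array but medulloblastoma 3, whose tool is not given in the sources used here. Per the labels, extraction used Trizol except for medulloblastoma 4, where the manufacturer's standard is named. No depth applies, and the number of arrays limits the precision.

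Arrays were grouped by tissue and numbered in accession order. They were scaled to a mean of 500 after trimming 2% at each end, which left them nearly as deposited. Each gene was represented by its brightest probe set on average, as named in the platform annotation (1 symbol for 34945 of 45101 probe sets, several for 932, 9160 others unnamed, 64 controls). The 14109 genes with a mean of at least 100 were compared on log2(signal + 32) with limma 3.58.1 in R 4.3.3 (lmFit, eBayes with a trend, two-sided, Benjamini-Hochberg, threshold 0.05). The residual spread comes from the tumours alone (3 degrees of freedom, plus 5.02 from the prior), so the cerebellum is assumed to vary like them. The ± values are standard errors of this fit. The procedure was tested on simulated data with 200 changed genes. It called 1.8% of changes of 1 on the log2 scale, 31.2% of 2, 46.4% of 3 and 59.8% of 4. False calls were 2.6 per run. A gene that was not called may therefore still differ. The simulated cerebellum was drawn with the spread of the tumours, so the simulation shares the assumption above and cannot check it.

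The members and lists were chosen with earlier results of these data known. Named were all members, each list's called genes and up to 4 (pathway) or 3 (markers) furthest from 0 in either direction, and the 3 genes nearest to each Id gene, passing over clone names. S100b, Aldoc, Slc1a2, Sox9, Neurod1, Zic1 and P2ry12 were also named, as markers that did not go with most of their list. Alternatives covered scaling, constants, filters, probe set choice, variance model, thresholds, title prefix and single tumours. The alternatives by title prefix with probe sets and filter taken from those arrays were chosen after seeing the data.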

Additional observations from a re-analysis of the deposited data

Results flagged for a closer look

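Among the 24 probe sets examined over the 4 tumours, 1 had a tumour far from the others. Bmp2 read 43.2 in medulloblastoma 1 and 6.57, 4.59 and 4.58 in the other tumours, compared with 28.5 in the cerebellum, and the gap to the nearest tumour was 0.926 of the whole range on the log2 scale, above Dixon's 95% critical value. Chance flags about 5% of such groups, and all these signals were under the minimum of 100 used for the tests.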

How the results depend on the processing

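The count of members called lower, 1 (Id3), was 2 at an adjusted p under 0.1, 5 at an unadjusted p under 0.05, 0 with eBayes without a trend, 4 in the hmk arrays alone with either choice of probe sets, 0 in the ken tumours with probe sets and filter taken from those arrays, and 0 to 3 with each tumour left out in turn. The share of all genes lower, 0.177% in the main fit, was 7.44% at that unadjusted p. It was 0% without a trend, 5.96% and 5.87% in the hmk arrays and 0% in those ken tumours. With each tumour left out it was 0% to 2.71%. The share at an adjusted p under 0.1 was not computed. The count called higher, 0, was 1 (Bmpr1b) in the hmk arrays alone with either choice and 0 to 1 with a tumour left out, as was the count at least 2-fold above the cerebellum in every tumour. Of all genes, 5.93% and 5.99% were called higher in the hmk arrays and 0% to 3.18% with a tumour left out. The 4 members at least 2-fold below the cerebellum in every tumour were 3 with the larger constant tried or a minimum mean of 200, which dropped Bmp4, and 5 with all probe sets averaged, which added Bmp7. Other scalings, constants, filters and probe set choices kept Id3 as the only member called. Bmpr1a reversed to 0.11 with equal medians, 0.048 with all probe sets averaged and 0.030 in the ken tumours, and Bmpr1b to -0.88 in the ken tumours with probe sets taken from those arrays, where its other probe set was the brighter. Bmp2 moved to -0.98 with a constant of 8. The differences of Id1, Id2, Id3, Id4, Bmp4, Bmp7 and Smad7 kept their sign in all 20 alternatives. For these genes every tumour was below the cerebellum in the main setting. Leaving out tumours or changing the constant or variance model could therefore not change the sign, and all alternatives share the same cerebellum array. Where not stated, the cause was not tested. No paired analysis was possible because there is 1 cerebellum and the labels pair no samples.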

Other observations

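Several further genes of the pathway were too dim to be tested. Nog, which encodes the antagonist noggin, read 99.1, 18.8, 7.61 and 7.53 in the medulloblastomas, against 117 in the cerebellum. Fst, which encodes follistatin, read 7.28, 48.6, 13.6 and 30.0, against 157 in the cerebellum. The effector gene Smad9 read 12.5, 88.9, 94.2 and 32.8, against 63.7 in the cerebellum. Signals of this size have no set order.

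Among the tested ligands, Bmp5 read 275, 345, 297 and 1615 in the medulloblastomas, against 351 in the cerebellum; it was named after its values were seen. Medulloblastoma 4 alone stood above the cerebellum there.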
